A study of Mus musculus with 14 samples.

Results

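The genes described here encode the protein parts of the cytosolic ribosome of the mouse. Members were taken by symbol alone: Rpl or Rps followed by a number and at most a short letter suffix, together with Rplp0, Rplp1, Rplp2 and Rpsa, with pseudogene symbols left out. In the 8 single-cell matrices, 78 of 17013 shared genes were members, 47 of the large and 31 of the small subunit. In the table of sorted cells, 80 of 33006 genes were members, and all 78 were among them. The other two, Rpl39l and Rpl10l, are retained paralogs that had no row in all 8 matrices. Ribosomal proteins with other kinds of names, such as Fau, Gnb2l1 (Rack1), Rps3a1 and Rpl22l1, fell outside the rule and are given beside the members.

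A ribosome carries 1 copy of nearly every one of these proteins, so cells make them in matched amounts, and surplus proteins that find no ribosome are degraded. Their messenger RNAs begin with a stretch of pyrimidines, the terminal oligopyrimidine motif, through which the kinase mTOR and the protein LARP1 switch their translation on and off together. In the brain, growing and dividing cells are known for high levels of these messages, and a few family members have paralogs that replace them in some tissues.

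All animals were male C57BL/6 mice injected intraperitoneally with saline, the mock group, or with morphine sulfate, and the labels give neither dose nor time of collection. The nucleus accumbens, a ventral striatal region of the reward circuit, was dissociated with papain and profiled by Drop-seq, which captures the 3' ends of polyadenylated RNA from single cells and counts them as unique molecular identifiers (UMIs). There were 4 mock and 4 morphine pools of 2 mice each, and in both groups the pools numbered 1 and 2 came from mice 37 to 45 days old and those numbered 3 and 4 from mice 78 to 82 days old. Oligodendrocytes, the myelin-forming cells, were also sorted from whole brain of mice 70 days old (3 mock and 3 morphine libraries), and their total RNA was amplified and sequenced in bulk. Nothing in the labels says from how many animals a sorted library came, so p-values measure the spread between these libraries, and between pools, only.

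Of 36000 deposited barcodes, 33225 were kept, with 6761888 to 24163551 UMIs per pool and a median of 1732.5 to 2775 UMIs per barcode. Any pair of pools shared 1 to 9 barcodes, 81 over the 28 pairs. By marker genes that include no member, 27370 barcodes (82.4%) were assigned to a class, 4053 carried markers of more than 1 class and were left out, and 12 classes were large enough to test. Class names stand for cells like the named type, by at least 3 detected markers and 2 more than for any other type. Medium spiny neurons met this rule as 1 type. They were then named D1 or D2 by at least 1 more detected marker of the one kind than of the other. Of the assigned barcodes, 1265 were medium spiny neurons with neither in excess, a class that was not tested. The 2 pools numbered 1 list more genes, with 209 and 217 ribosomal protein pseudogene rows against 24 or 25 in the others. Mitochondrial UMIs made up 3.43 to 4.46% of the total in mock pools and 5.16 to 6.25% in morphine pools, without overlap, and the nuclear RNA Malat1 0.567 to 0.967% and 0.869 to 1.55%. Sorted libraries had 14989118 to 23456702 reads in genes. Levels are given as CPM, a gene's UMIs or reads scaled to a common library total. The 12 oligodendrocyte markers summed to 20843 to 22975 CPM there, against 779 to 959 for the 12 astrocyte markers and 67.8 to 85.0 for the 12 microglial markers (74.0 to 85.0 in mock, 67.8 to 70.6 in morphine).

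All 80 members have a protein-coding gene in GENCODE vM21 (GRCm38). They lie on 19 chromosomes, 4 of them on X. Exons of 27 overlap another gene on the same strand, and exons of 18 overlap a gene on the other strand. Family members have many processed pseudogenes, and a median of 54.0% of the 50-base stretches of a member's transcript occur in no other gene, from 4.91% for Rpl35 to 100% for Rpl39l. In 35 members the unique share was under 50%. Levels of such members depend on how reads with several matches were treated, which is not given in the sources used here for the UMIs.

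The annotated start sites show pyrimidine runs unevenly. The share over all member sites is given further on, and windows of 6 of the members named below are printed as examples. Each is 30 bases centred on the annotated transcription start in RefSeq (GRCm38.p6), read 5′ to 3′ on the gene's strand. Capitals mark a run of at least 5 bases that are all C or T and that begins within 5 bases of the start, and a window without capitals has no such run. Rps27 (chr3:90213634-90213663, minus strand), Rpl38 (chr11:114668565-114668594, plus strand), Rpl31 (chr1:39367836-39367865, plus strand) and Rps27l (chr9:66946071-66946100, plus strand) have one at the start shown. Rpl13 (chr8:123102335-123102364, plus strand) and Rpl24 (chr16:55966260-55966289, plus strand) do not. Another annotated start of Rps27l (chr9:66946398-66946427, plus strand) has no run, and Rpl22, not printed, has none at its annotated starts. Starts are as annotated and were not measured here. Runs farther from them, as at the left end of the Rpl13 window, are not counted, so a window without capitals does not show that the message lacks the motif.
Rps27: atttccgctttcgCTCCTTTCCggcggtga
Rpl38: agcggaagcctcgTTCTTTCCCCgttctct
Rpl31: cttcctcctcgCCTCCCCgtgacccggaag
Rps27l: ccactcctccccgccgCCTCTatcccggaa
Rpl13: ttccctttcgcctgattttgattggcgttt
Rpl24: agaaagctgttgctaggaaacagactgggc

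RefSeq promoter windows matched 60 of the 80 members, with 72 start sites. A pyrimidine run as defined above was found at 34.7% of those 72 sites and at 22.03% of all 32851 sites. The letters CTTTCC on the gene's strand within 20 bases of the start occurred at 15.3% against 1.95%, and such a match can lie inside a run. Searched on either strand over 300 bases (250 before to 50 after the start), CCGGAAG, the core bound by GABP and other ETS factors, occurred in 36.1% of member windows against 8.86% of all windows. The letters AAGATGGC, a YY1-type core, occurred in 9.72% against 2.75%, GGGCGG, the GC box, in 58.3% against 35.7%, and TATAAA in 8.33% against 13.6%. These shares describe letters in windows and name no bound factor.

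Summed over all members, ribosomal protein messages made up 3.87, 3.12, 3.27 and 2.49% of UMIs in mock pools 1 to 4 and 3.00, 2.97, 3.14 and 2.66% in morphine pools 1 to 4. The pools numbered 4 were lowest in both groups and also had the most UMIs per barcode (medians 2775 and 2707). The most abundant message by UMIs was Rplp1, a protein of the stalk that recruits translation factors, at 2.60% of the family, followed by Rpl41 and Rps29 (2.24% each) and Rpl13 (2.19%). Rpl14, Rps14, Rpl13a, Rpl3 and Rps3 were also among the first 10, which together held 20.9% of the family's UMIs. At the other end stood Rpl3l, the muscle paralog of Rpl3, with 39 UMIs over all 8 pools, and then Rpl24, Rps27l, Rpl10a and Rpl29. The order of the 78 members was similar between classes: Spearman's rho over members ran from 0.708 (D2 neurons against neuroblasts) to 0.994 (D1 against D2 neurons), with a median of 0.840 over the 66 pairs of classes, which share pools and annotation.

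**Figure D1:**
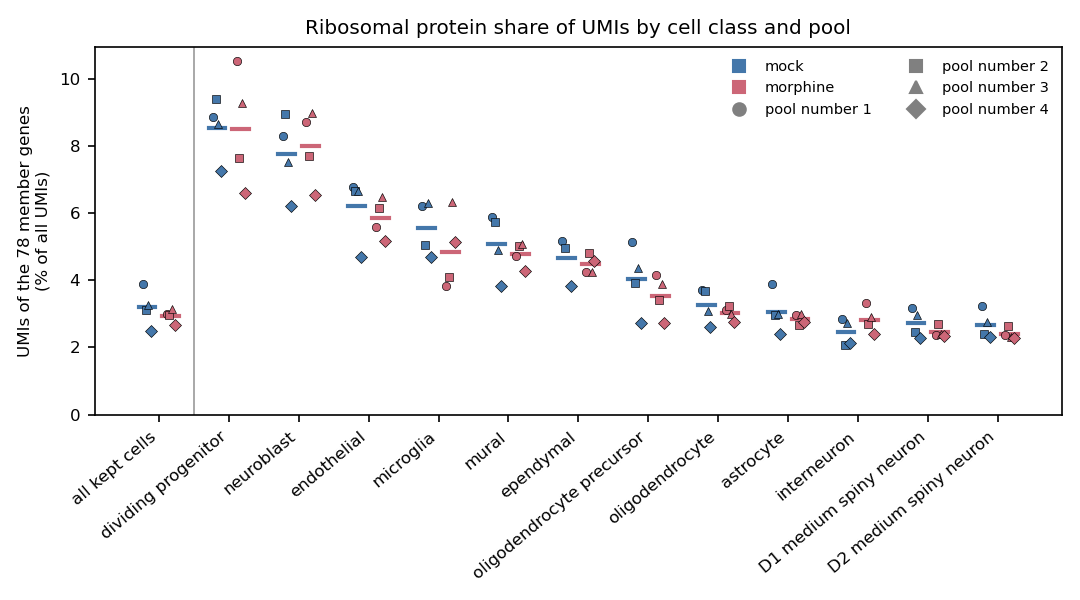
Percent of all UMIs that fell in the 78 member genes (vertical axis), for all kept cells and for each cell class (horizontal axis); each point is 1 pool, blue for mock and red for morphine, with the shape giving the pool number, and bars are group means. Dividing progenitors and neuroblasts lie highest and the 3 neuron classes lowest, while mock and morphine points overlap in every class.

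Cell classes differed several-fold in how much of their RNA encoded ribosomal proteins. Dividing progenitors had 8.53 ± 1.29% (SD, n = 8 pools), neuroblasts 7.87 ± 1.07% and endothelial cells 6.02 ± 0.78%. Microglia (5.202 ± 0.989%), mural cells (4.93 ± 0.69%) and ependymal cells (4.55 ± 0.47%, n = 7) followed. Oligodendrocyte precursors reached 3.79 ± 0.82%, oligodendrocytes 3.14 ± 0.39% and astrocytes 2.95 ± 0.44%. Interneurons (2.64 ± 0.42%) and the medium spiny neurons with D1 (2.58 ± 0.33%) or D2 markers (2.54 ± 0.33%), the main projection neurons of the accumbens, were lowest. The means of the 3 neuron classes lay within 1 SD of each other, as did those of dividing progenitors and neuroblasts and those of microglia and mural cells. All classes come from the same pools, and these shares were not compared pool by pool. Median UMIs per cell ran from 1187.5 (mural) to 3926 (interneurons) and were not ordered as the shares: dividing progenitors, with the highest share, had 2993 and D1 neurons 3457. A share falls when other messages of a cell increase, so these values give proportions of the captured RNA.

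The difference ran through nearly the whole family. Each class was set against the mean of the other 11 with edgeR's quasi-likelihood test, pools as blocks and Benjamini-Hochberg adjustment over 10379 genes, of which 77 were members (Rpl3l had too few UMIs). Over all class and gene pairs, 26.0% of genes were called higher and 22.6% lower. In dividing progenitors 76 members were higher and 0 lower, where 21.6% of all genes were higher and 26.2% lower, and Rpl24 was the one member without a call. DESeq2 was not run for the contrasts between classes. In endothelial cells 76 were higher and 1, Rpl24, was lower (29.4 and 27.2% of all genes). In neuroblasts 75 were higher and 0 lower (16.9 and 17.9% of all genes). The unadjusted test there put 76 members under 0.05, and 4494 of all 10379 genes.

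Microglia had 60 members higher and 1 lower (23.3 and 14.9% of all genes), and mural cells 44 and 1 (16.6 and 12.8%). Ependymal cells had 21 higher and 8 lower (20.3 and 24.8% of all genes), with the median member at 0.05 (log2) and the median gene at -0.29. In oligodendrocytes 9 were higher and 29 lower (31.0 and 28.5%). Neurons and the remaining glia were on the low side: astrocytes had 0 higher and 68 lower (30.2 and 20.6%), oligodendrocyte precursors 1 and 65 (20.1 and 17.6%), D1 neurons 1 and 74 (39.0 and 28.6%), D2 neurons 1 and 74 (37.4 and 28.3%) and interneurons 1 and 76 (25.7 and 23.7%). The single member that was higher in the 3 neuron classes was Rpl24 each time, and in the precursors it was Rpl13.

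In log2 units the median member stood 0.89 above the other classes in dividing progenitors, 0.73 in endothelial cells and 0.67 in neuroblasts, and at -0.77 in D1 neurons, -0.75 in D2 neurons and -0.77 in interneurons. Medians over all genes in those classes were -0.23, -0.05, -0.19, 0.02, 0.01 and -0.11. Other scalings of the libraries moved the median of all genes by up to 0.27 upward and 0.35 downward. The distance of the members' median from it hardly moved, at 1.12 to 1.14 in dividing progenitors, 0.86 to 0.91 in neuroblasts, -0.81 to -0.79 in D1 neurons, 0.32 to 0.33 in ependymal cells and -0.10 to -0.09 in oligodendrocytes. Counts of calls moved with the median of all genes: scaled by library totals, 70 members were lower and 1 higher in oligodendrocytes, where the median gene was then at -0.39. With DESeq2's size factors 49 were higher and 1 lower in ependymal cells, where the median gene was then at -0.01.

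The messages of the 2 subunits were not in 1 ratio across classes. Small-subunit UMIs divided by large-subunit UMIs came to 0.84 ± 0.02 (SD, n = 8) in neuroblasts, 0.82 ± 0.03 in dividing progenitors and 0.80 ± 0.01 in oligodendrocytes, but to 0.70 ± 0.01 in D1 neurons, 0.69 ± 0.01 in D2 neurons and 0.66 ± 0.01 in oligodendrocyte precursors. The oligodendrocytes ranged from 0.79 to 0.82 over the 8 pools and the D1 neurons from 0.68 to 0.71, so these did not overlap. Without Rpl13 the ratio in the precursors was 0.75 ± 0.01, no longer the lowest mean. Counted in the same way it was 0.72 ± 0.01 in D1 and in D2 neurons, 0.74 ± 0.03 in interneurons and 0.83 ± 0.01 in oligodendrocytes. UMIs come from 3' tags, so such ratios compare messages caught per transcript end, not per length.

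To find members that left the family, each was also tested with the family's summed UMIs as library size, over 10840 genes. Of 924 class and member pairs, 214 were higher and 202 lower than the family. In the same fit 32.9% of all class and gene pairs were higher and 28.5% lower, but those carry the family's own level, since everything is divided by it. Every one of the 77 tested members was called in at least 1 class. The matching share of all genes was not counted, so this sets the members apart from no other genes. Sizes were mostly small: the median member spanned 0.73 on the log2 scale from its lowest to its highest class, Rpl13a spanned only 0.35, and 17 spanned more than 1. The widest were Rpl24 (2.66), Rpl13 (2.11), Rps27l (1.68), Rpl22 (1.41), Rps27 (1.38) and Rplp1 (1.31).

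**Figure D2:**
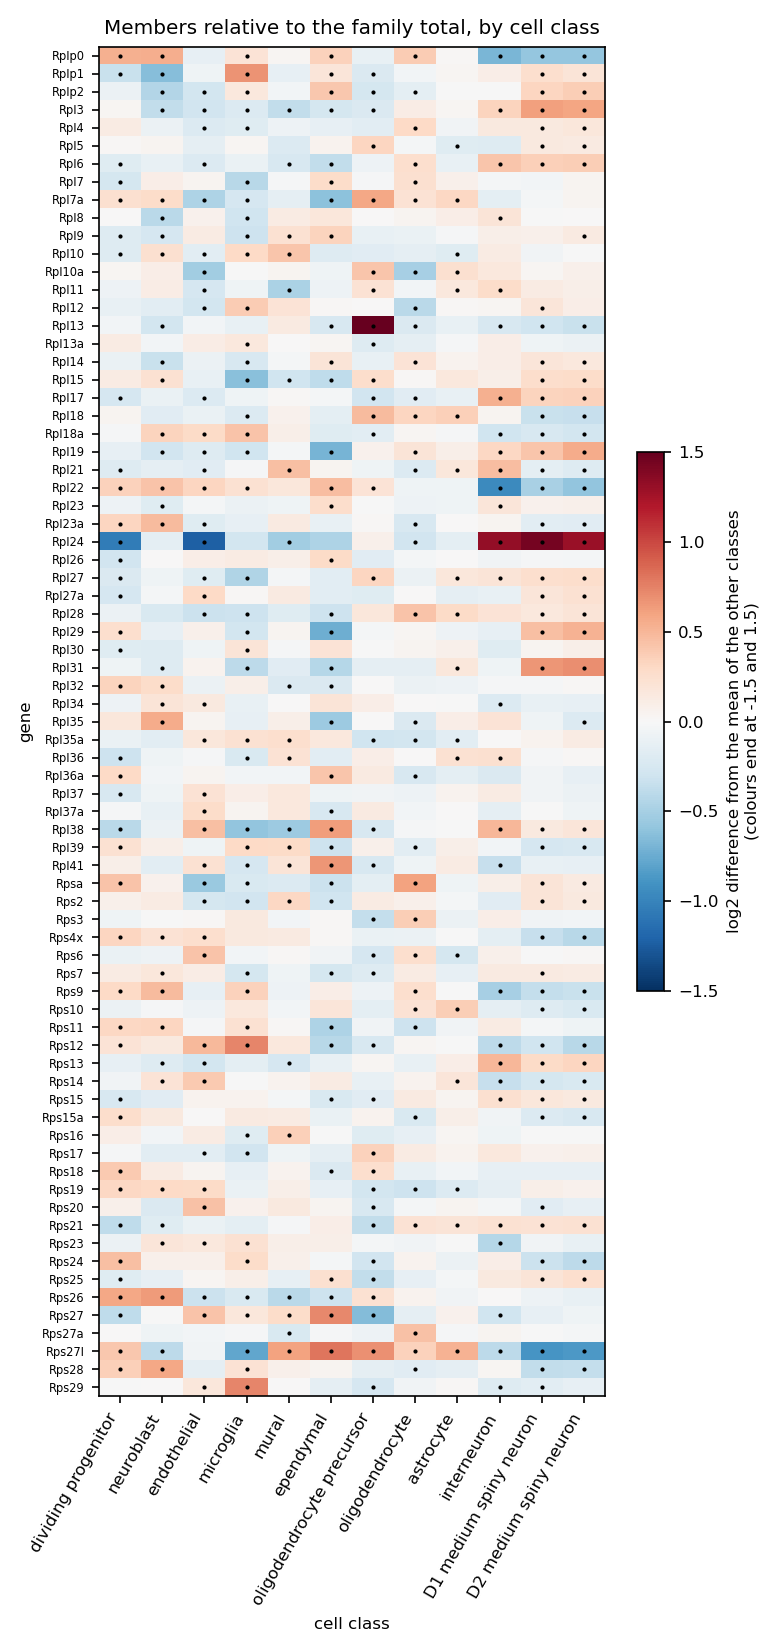
Each row is 1 of 75 of the 77 tested members and each column a cell class, with colour giving the log2 difference from the mean of the other classes after division by the family total (red above, blue below, colours ending at 1.5 on either side) and a dot marking a Benjamini-Hochberg adjusted p under 0.05. Rpl13 stands out in oligodendrocyte precursors, Rpl24 in the 3 neuron classes, and Rps27l in blue in D1 and D2 neurons.

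Among large-subunit members, Rpl13 had its own pattern in oligodendrocyte precursors, the dividing cells that renew oligodendrocytes. Its level there was 3353, 3401, 3166 and 2143 CPM in mock pools 1 to 4 and 2805, 2376, 2964 and 2002 in morphine pools 1 to 4. In oligodendrocytes it was 712, 729, 631 and 489, then 807, 695, 690 and 544. The precursors were higher in 8 of 8 pools, by 3.42 to 5.02 times, and had the highest Rpl13 of all classes in each pool. This held for the share of the family too: Rpl13 made up 7.34 ± 0.72% (SD, n = 8) of the precursors' ribosomal protein UMIs and on average 1.94 to 2.63% in each other class. Against the family, Rpl13 was 1.78 ± 0.055 (SE, log2) higher in precursors with edgeR's quasi-likelihood test (adjusted p = 9.61e-54).

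Rpl13 (ENSMUSG00000000740) lies at chr8:123102350-123105244 on the plus strand (GRCm38), and its exons overlap Snord68 and Mir7079. Of its 50-base stretches 19.7% are unique, and 11.97% in the last 400 bases, where 3' tags fall. The precursor class held 791 cells, 32.4% of them within 1 marker of the gate, and 2 of its 10 leading genes, Gpr17 and Neu4, are markers of newly formed oligodendrocytes. The part of these in the result was not tested. Relative to the family, Rpl7a was also higher in precursors (0.58 ± 0.077, adjusted p = 2.31e-10, edgeR with Benjamini-Hochberg), and so was Rps27l (0.69 ± 0.11, adjusted p = 3.06e-08). As plain levels in precursors neither Rpl7a (0.12, adjusted p = 0.325) nor Rps27l (0.23, adjusted p = 0.087) was called by edgeR. Below the family were Rps27 (-0.65 ± 0.078), Rps25 (-0.37 ± 0.077) and Rps21 (-0.37 ± 0.076).

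Rpl24, a late-joining protein that forms a bridge between the subunits, was the only tested member above the other classes in D1, D2 and interneuron cells even without dividing by the family. In D1 neurons it had 58.9, 101, 99.2 and 113 CPM in mock pools 1 to 4 and 64.1, 112, 105 and 113 in morphine pools 1 to 4. In endothelial cells the values were 16.4, 46.4, 47.7 and 48.7, then 16.6, 52.8, 38.1 and 52.7. Both pools numbered 1 were low in both classes, yet D1 neurons were higher in 8 of 8 pools (2.08 to 3.87 times). Relative to the family, Rpl24 was 1.43 ± 0.084 higher in D1 neurons (adjusted p = 7.77e-31), 1.30 ± 0.088 in D2 neurons and 1.32 ± 0.16 in interneurons, and -1.23 ± 0.14 in endothelial cells and -1.05 ± 0.17 in dividing progenitors, by edgeR's quasi-likelihood test.

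The Rpl24 gene (ENSMUSG00000098274, chr16:55966275-55971435, plus strand) overlaps Gm28037 on its own strand, and 18.3% of its 50-base stretches are unique. It was among the lowest members by UMIs, at 0.26% of the family, and in endothelial cells its levels rest on 3 to 28 UMIs per pool. In mural cells its departure from the family (-0.53 ± 0.21, adjusted p = 0.041) was lost without any 1 of 3 pools, in the mock pools alone, and with no filter on low counts.

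**Figure D3:**
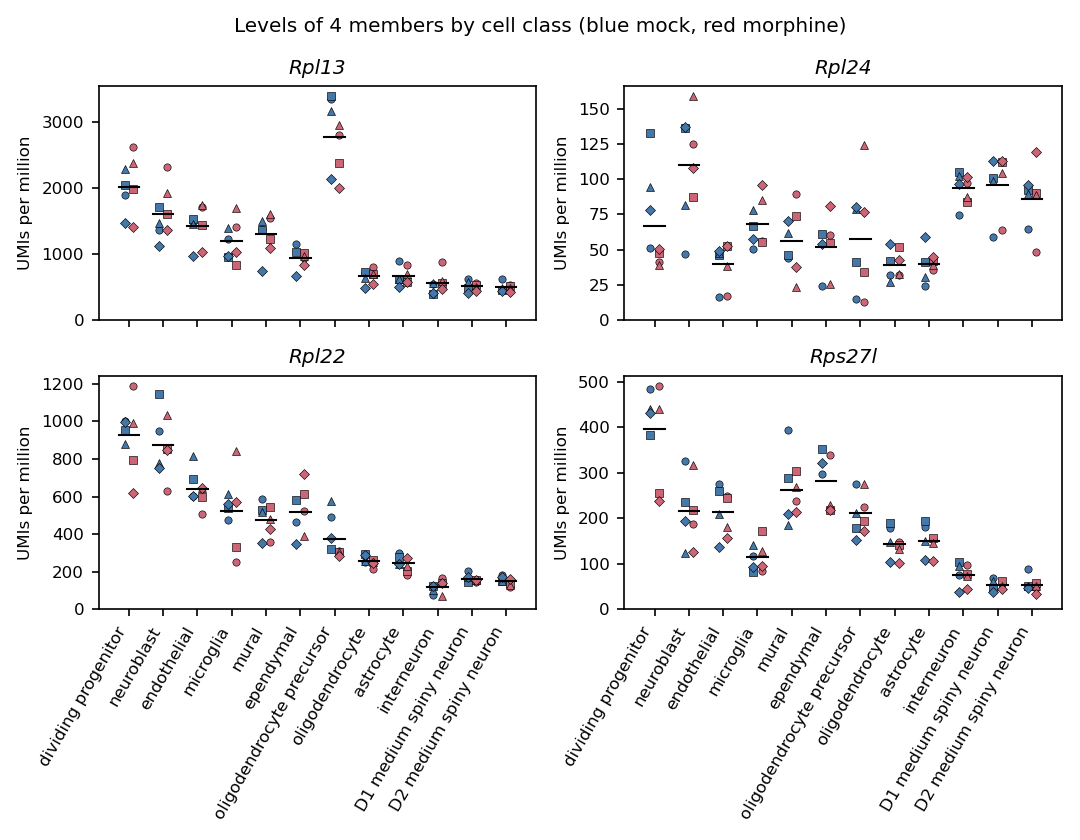
CPM of UMIs (vertical axes) of Rpl13, Rpl24, Rpl22 and Rps27l in each cell class (horizontal axes); each point is 1 pool, blue for mock and red for morphine, with circles, squares, triangles and diamonds for pool numbers 1 to 4, and lines are means over pools. Rpl13 peaks in oligodendrocyte precursors at 2002 to 3401, while Rpl22 and Rps27l are lowest in the 3 neuron classes.

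Of 46 tested large-subunit members, 18 were above the family and 8 below it in D1 neurons, and 18 and 9 in D2 neurons. In the same fit 7737 of 10840 genes were higher and 1094 lower in D1 neurons, and 7573 and 1128 in D2 neurons. Those counts over all genes carry the family's own low level in these cells. After Rpl24 the members farthest above the family in both classes were Rpl31 and Rpl3. Rpl31, which sits near the exit tunnel for the growing protein, was 0.66 ± 0.060 higher in D1 and 0.70 ± 0.060 in D2 neurons. Rpl3, near the catalytic centre, was 0.62 ± 0.060 and 0.60 ± 0.060 higher. As plain levels these 2 were not called different from the other classes in D1 or D2 neurons, the adjusted p ranging from 0.077 to 0.507: they stayed level where the rest of the family was low. In D1 neurons Rpl31 had 713, 528, 530 and 416 CPM in mock pools and 537, 490, 592 and 442 in morphine pools.

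Rpl22, an RNA-binding protein that mice can replace with its paralog Rpl22l1, fell below the family in D1 neurons (-0.48 ± 0.074, adjusted p = 3.71e-09, edgeR), D2 neurons (-0.59 ± 0.075) and interneurons (-0.96 ± 0.11). Its levels in D1 neurons were 203, 147, 171 and 175 CPM in mock and 144, 155, 159 and 159 in morphine pools, against 508 to 815 in endothelial cells. Rpl22l1 went the other way in the same cells: relative to the family it was 1.03 ± 0.072 higher in D1 neurons, 1.04 ± 0.073 in D2 neurons and 1.23 ± 0.095 in interneurons. It was below the family in endothelial cells (-0.97 ± 0.094), neuroblasts (-0.91 ± 0.12) and microglia (-0.79 ± 0.10). Plain levels of Rpl22l1 were called higher in D1 neurons (0.27), D2 neurons (0.29), interneurons (0.42) and dividing progenitors (0.70). They were called lower in endothelial cells (-0.21) and microglia (-0.33) but not in neuroblasts (-0.18). The paralog-to-parent ratio of UMIs was therefore 2.22 ± 0.26 (1.81 to 2.59) in D1 neurons, 2.41 ± 0.46 in D2 neurons and 4.11 ± 2.41 (2.26 to 9.2) in interneurons. Endothelial cells had 0.38 ± 0.09 (0.28 to 0.52) and neuroblasts 0.40 ± 0.14. No pool of D1 or D2 neurons fell below 1.81. Astrocytes (mean 1.06) reached 1.76 in 1 pool, ependymal cells 1.26 and mural cells 1.25. No pool of endothelial cells, microglia or neuroblasts exceeded 0.963.

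The stalk proteins did not move as 1 block. Rplp0, the base of the stalk, was above the family in 5 classes, among them dividing progenitors (0.54 ± 0.079, adjusted p = 2.59e-09, edgeR). It was below the family in D1 neurons (-0.58 ± 0.075), D2 neurons (-0.58 ± 0.077) and interneurons (-0.68 ± 0.11). Its level in dividing progenitors was 1072, 1252, 849 and 847 CPM in mock pools and 1350, 938, 953 and 820 in morphine pools, 5.54 to 9.56 times that in D1 neurons of the same pool. Rplp1 was above the family in 4 classes, among them microglia (0.67 ± 0.063). It was below the family in 3, among them neuroblasts (-0.64 ± 0.077), where Rplp2 was also below it (-0.44 ± 0.077). As plain levels in neuroblasts, Rplp1 was not called (0.06, adjusted p = 0.672, edgeR) and Rplp2 was called higher (0.28, adjusted p = 0.022). Among other large-subunit members, Rpl38, known from mice with patterning defects of the skeleton, was above the family in 5 classes and below it in 4. Rpl38 was above the family in ependymal cells (0.63 ± 0.078), interneurons (0.50 ± 0.076), endothelial cells (0.45 ± 0.064), D2 neurons (0.18 ± 0.064) and D1 neurons (0.14 ± 0.063). It was below the family in microglia (-0.60 ± 0.077), mural cells (-0.55 ± 0.084), dividing progenitors (-0.40 ± 0.074) and oligodendrocyte precursors (-0.24 ± 0.076). As a plain level Rpl38 was called the other way in D1 and D2 neurons, interneurons (-0.30) and dividing progenitors (0.50). Endothelial (1.21) and mural cells (-0.29) kept the direction as plain levels, and microglia had no call.

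On the small subunit, Rps27l showed the widest spread. It is the p53-responsive paralog of Rps27, and 86.3% of its 50-base stretches are unique. In D1 neurons it had 69.0, 47.9, 61.7 and 38.1 CPM in mock pools 1 to 4 and 56.5, 61.7, 51.1 and 44.2 in morphine pools 1 to 4. Ependymal cells, with 12 to 46 Rps27l UMIs per pool, had 218 to 352 CPM in 7 pools, above the D1 neurons in each. Relative to the family, Rps27l was -0.88 ± 0.085 in D1 neurons (adjusted p = 2.15e-17, edgeR's quasi-likelihood test), -0.86 ± 0.088 in D2 neurons and -0.78 ± 0.12 in microglia. It was above the family in ependymal cells (0.80 ± 0.13), precursors (0.69 ± 0.11), mural cells (0.60 ± 0.12) and astrocytes (0.53 ± 0.082). As a plain level Rps27l was called higher in ependymal (0.89) and mural cells (0.86) but not in precursors (0.23) or astrocytes (0.16).

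Rps27 itself was above the family in ependymal cells (0.72 ± 0.074) with 1515, 1461 and 1128 CPM in mock pools 1, 2 and 4 and 1662, 1769, 1369 and 825 in morphine pools. The ratio of Rps27l to Rps27 UMIs was 0.12 ± 0.01 (0.11 to 0.14) in D1 neurons and 0.48 ± 0.17 (0.36 to 0.84) in precursors, so each precursor pool exceeded each D1 pool. Of the other paralog pairs, Rpl3l was at 0 in 7 of the 12 classes. Rpl39 and Rpl10, parents of Rpl39l and Rpl10l, ranged from 185 to 847 and from 262 to 972 CPM over classes. Rps4x, whose Y-linked copy mice lack, ranged from 183 to 986.

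In microglia 8 of 31 small-subunit members were above the family and 8 below it. In the same fit 1453 of 10840 genes were higher and 4556 lower there, counts that carry the family's own high level. Rps12 (0.74 ± 0.074, adjusted p = 1.32e-15) and Rps29 (0.73 ± 0.060, adjusted p = 2.84e-20) were above the family with edgeR's quasi-likelihood test. Rps12 in microglia measured 1304, 1075, 1394 and 941 CPM in mock pools and 507, 574, 1147 and 1080 in morphine pools, and D1 neurons had 198 to 366. The morphine pools 1 and 2 were lowest, and they hold few Rps12 UMIs (18 and 93). Rps12 exons overlap Snord100 and Snora33, and 16.4% of its 50-base stretches are unique. Rps12 was also above the family in endothelial cells (0.48 ± 0.070), beside Rps20 (0.44 ± 0.067).

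Rps26, at the channel where messenger RNA leaves the small subunit, was above the family in neuroblasts (0.64 ± 0.068) and dividing progenitors (0.59 ± 0.064). In neuroblasts it had 1867, 2161, 1681 and 1540 CPM in mock and 2320, 1808, 2070 and 1770 in morphine pools, 3.36 to 6.58 times the D1 neurons. Rps28 (0.58 ± 0.078) was high beside it in neuroblasts and Rps24 (0.45 ± 0.062) in dividing progenitors. Rpsa, also known as the laminin receptor precursor, was 0.60 ± 0.063 above the family in oligodendrocytes, followed by Rps27a (0.44 ± 0.058) and Rpl28 (0.43 ± 0.074). In endothelial cells Rpsa was below the family (-0.55 ± 0.073). As a plain level it was called higher in both oligodendrocytes (0.51) and endothelial cells (0.21). The Rpsa share of family UMIs was higher in oligodendrocytes than in endothelial cells in 8 of 8 pools (1.70 to 2.398 times). The class pairs set side by side here were chosen after their values were seen, and the ratios describe these pools.

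Morphine was next compared with mock, the contrast the study was built on. In all kept cells together no member passed the test. With edgeR's quasi-likelihood test, 0 of 77 members were called where 0.00% of 15149 genes were. An unadjusted p under 0.05 was found for 0 members and 261 of all genes, and DESeq2 called 0 members and 4 other genes. The median member differed by -0.04 (log2, morphine minus mock) against 0.00 for all genes, 24 members were positive and 53 negative, and for 68 of 77 the 95% interval lay within 1.5-fold in either direction. In 0 of 77 were the 2 groups of pools without overlap, against 1.78% of all genes. Rps12 (-0.29 ± 0.17, 95% interval -0.66 to 0.08) and Rplp1 (-0.25 ± 0.14, -0.57 to 0.07) had the smallest p-values, both at an adjusted p of 1.00.

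Rps12 was at 482, 365, 420 and 275 CPM in mock pools 1 to 4 and 262, 274, 319 and 332 in morphine pools 1 to 4, so mock pool 4 lay within the morphine range. The family's share was 3.19 ± 0.57% (SD, n = 4) in mock and 2.94 ± 0.20% (SD, n = 4) in morphine pools. Mitochondrial and Malat1 shares differed between the groups, as given above, and the share of the 3 classes richest in ribosomal protein RNA among assigned cells was 6.87 to 8.48% in mock and 5.76 to 10.8% in morphine pools. Their part in these values was not tested. In pooled cells a change in cell types and a change in RNA per cell cannot be told apart.

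Within classes the result was the same. Over 920 class and member pairs 0 were called by edgeR's quasi-likelihood test (0.00447% of all class and gene pairs), and DESeq2 also called 0 members in each of the 12 classes. An unadjusted p under 0.05 was found for 9 pairs. Of these, 6 were in interneurons, where 107 of 3448 genes were under it, and 3 in precursors (160 of 4055 genes). Of all genes 0.110% were called in ependymal cells, 0.0247% in precursors and 0.00% in the other classes. For 465 of the 920 the 95% interval stayed within 1.5-fold, 72 of 77 in D1 and in D2 neurons but only 4 in microglia and 9 in interneurons. In oligodendrocytes, the class that was also sorted, the median was -0.03 and the smallest p-values belonged to Rps6 (0.35 ± 0.16, 95% interval -0.0045 to 0.70) and Rps12 (-0.34 ± 0.17, -0.70 to 0.03). Medians farthest from 0 were those of interneurons (0.24, 65 of 77 positive), precursors (-0.17, 15 of 77 positive) and microglia (-0.16, 12 of 77 positive). The interneuron median was -0.07 with a stricter gate, and 58.5% of interneurons lay within 1 marker of the gate. Without the pools numbered 1 the microglial median was 0.01, and without mock replicate 1 that of the precursors was 0.01.

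Older pools were also set against younger ones, with treatment as a covariate. Of 77 members 0 were called by edgeR (0.00% of 15413 genes), 1 had an unadjusted p under 0.05 (1639 of all genes), and DESeq2 called 0 members and 31 other genes. The median member was -0.12 (older minus younger), 60 of 77 being negative, and all genes had a median of 0.01. Rps27l had the smallest p (-0.48 ± 0.18, 95% interval -0.89 to -0.07, adjusted p = 0.464), with 133, 108, 116 and 90.2 CPM in the younger and 89.7, 61.4, 99.8 and 61.8 in the older pools, which overlap. Rps27 followed (-0.45 ± 0.20, adjusted p = 0.474). Without the pools numbered 1, which are all younger, the median was -0.03.

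Sorted oligodendrocytes gave the same count with far more called genes around it. By edgeR's quasi-likelihood test 14.8% of 15759 genes differed between morphine and mock libraries, but 0 of the 71 tested members did. An unadjusted p under 0.05 was found for 0 members and 3875 of all genes, and DESeq2 called 0 members among 1851 genes. The median member was at -0.03 and the median gene at -0.02, 29 members were positive and 42 negative, and 51 of 71 had a 95% interval within 1.5-fold. The authors' deposited table has 0 of 80 members under an adjusted p of 0.05, with its log2 fold changes from -0.485 to 0.318 and 6 members without an adjusted p. Libraries did not overlap between groups for 8 of 71 members, against 29.1% of all genes.

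**Figure D4:**
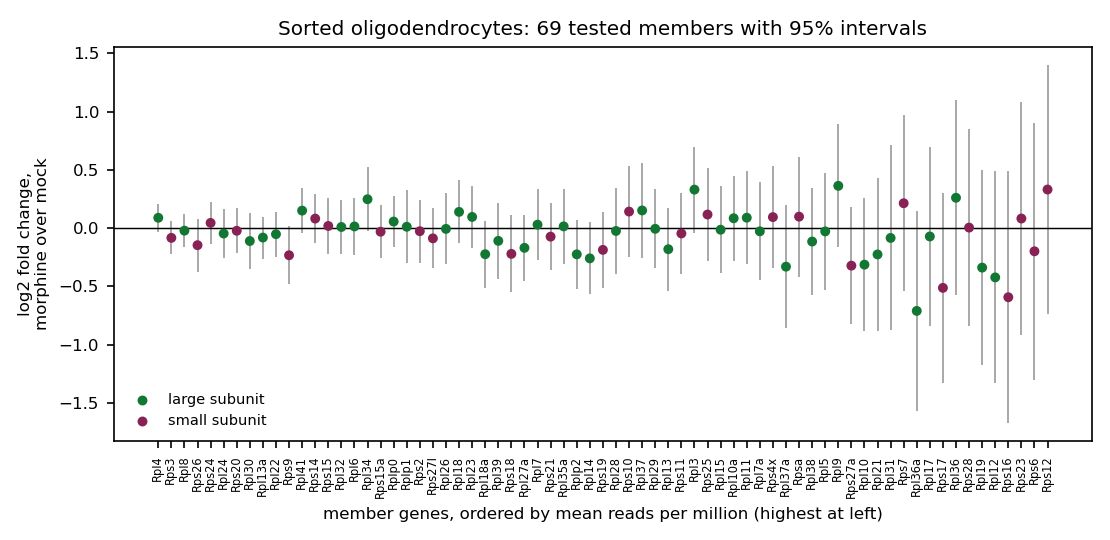
Log2 fold change, morphine over mock, of 69 of the 71 tested members in sorted oligodendrocytes (vertical axis), ordered from the most to the least abundant by CPM (horizontal axis); points are edgeR estimates from 3 mock and 3 morphine libraries, green for the large and purple for the small subunit, and bars are 95% intervals. Intervals widen toward the less abundant members at the right, and each of the 69 shown includes 0.

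Abundant members were measured closely. Rpl4, which lines the exit tunnel, had 218, 201 and 218 CPM in mock libraries 1 to 3, numbered as in the deposited table, and 214, 233 and 219 in morphine libraries 1 to 3, a difference of 0.09 ± 0.057 (95% interval -0.03 to 0.21). Rps3, at the entry of the messenger RNA channel, had 117, 116 and 139 against 119, 116 and 110 (-0.08 ± 0.068). Rpl8 had 91.1, 76.4 and 86.9 against 79.6, 84.9 and 82.2 (-0.02 ± 0.069). In all 3 the groups overlapped, and their intervals exclude changes of 1.5-fold.

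The smallest p-values were those of Rps9 (-0.23 ± 0.12, adjusted p = 0.245), Rpl34 (0.25 ± 0.13, adjusted p = 0.263) and Rpl3 (0.33 ± 0.18, adjusted p = 0.268), by edgeR with Benjamini-Hochberg adjustment. Rps9, which helps keep decoding accurate, had 19.2, 14.9 and 23.1 CPM in mock and 14.97, 16.7 and 16.4 in morphine libraries. Mock library 2 was the lowest of the mock libraries for Rps9, Rps26 (39.9, 27.7 and 42.5) and Rpl30 (28.2, 19.7 and 30.3), and also had the fewest reads in genes and the most reads outside them (74.3% against 69.5 to 71.7%). Without that library 3 members were called lower with morphine: Rps26 (-0.30 ± 0.077, adjusted p = 0.0031), Rps9 (-0.37 ± 0.10, adjusted p = 0.0089) and Rpl30 (-0.27 ± 0.088, adjusted p = 0.032). These 3 were named after their values were seen, and the 2 remaining mock libraries give this fit its whole estimate of the mock level.

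The family was a small part of the sorted cells' reads. It took 13897 to 23314 reads per library, 0.0927 to 0.108% of reads in genes, where the accumbens oligodendrocytes had 3.14% of their UMIs in it. Of 80 members 22 reached 10 CPM and 15 stayed under 1, and for 73 of the 77 members compared the UMI level in oligodendrocytes was more than 10 times the read level. Per length, Rpl4 led with 108 RPKM (CPM per kilobase of exon), then Rpl8 (61.5), Rps3 (26.7) and Rpl24 (26.4). Rps27 had 0 to 0.158 CPM, Rpl23a 0.0426 to 0.139 and Rps29 0.0853 to 0.534, although Rps29 is among the 3 most abundant members by UMIs in the accumbens pools.

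Members' ranks in the data sets had little in common: Spearman's rho between RPKM and UMIs was 0.21 over 77 members. RPKM ranked with the unique share of a member's 50-base stretches (rho 0.47), and the ratio of UMIs to reads ranked against it (rho -0.49), while UMIs alone ranked with it at 0.14. Reads matching several places were 34.3 to 35.5% of all reads in the sorted libraries and carry no gene there. The data sets also differ in RNA type, amplification and tissue, and the part of each in this gap was not tested.

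**Figure D5:**
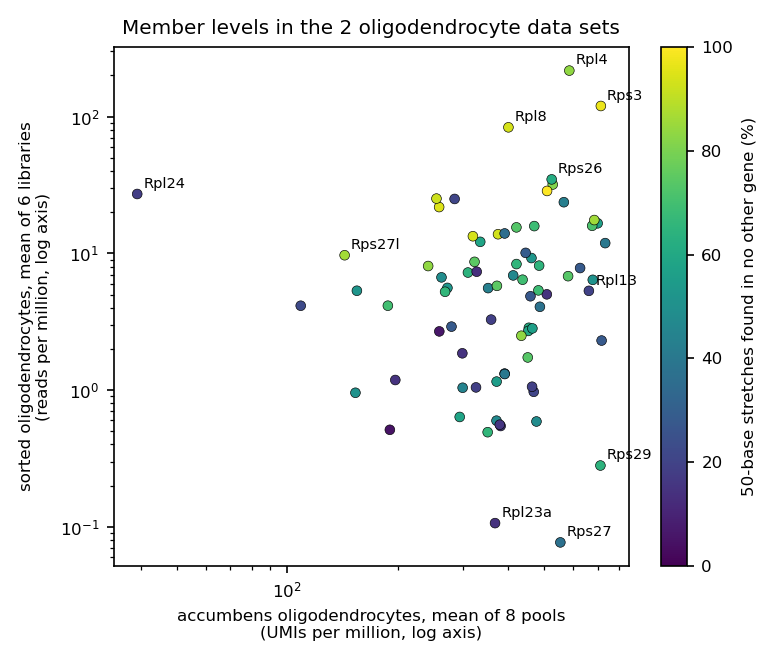
Each point is 1 member, with its mean UMI CPM in accumbens oligodendrocytes over 8 pools (horizontal axis, log scale) and its mean read CPM in 6 sorted libraries (vertical axis, log scale), coloured by the percent of its 50-base stretches found in no other gene. Rpl4 and Rps3 lie at the top, Rps27 and Rpl23a at the bottom, with similar UMI levels.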

How the data were processed

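Per the labels' protocols, accumbens pools were Drop-seq libraries and sorted cells were amplified total RNA read once over 50 bases. The authors deposited UMI counts per gene and barcode, a table of read counts per gene for the sorted cells, and their own comparison of these with log2 fold changes and p-values. The build mm10 and the tools STAR 2.4.2a, Trimmomatic 0.36, DESeq, DESeq2 and HTSeq are those in the submitters' processing notes, and which reads each tool handled is not given in the sources used here.

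Barcodes were required to have 300 genes or more and no more than 20% of UMIs from mitochondria, and classes needed 10 cells in a pool. UMIs were summed per pool and class. Tests were edgeR 4.0.16 (R 4.3.3) quasi-likelihood fits with TMM scaling and its low-count filter, adjusted by Benjamini-Hochberg over all genes tested at 0.05. The 95% intervals use each gene's standard error. DESeq2 1.42.0, other scalings and filters, a stricter gate, a replicate block and leaving out each sample were alternatives, and the fits were tested on simulated data. Intervals cover no shared error of library preparation. Named members are the 3 (sorted cells) or 2 (pools, classes, age) of smallest p where none was called, the 3 farthest on each side per class against the family, the 10 most abundant, paralogs, and up to 3 genes per related list. The members and lists were chosen with earlier results of these data known. A few genes are counted among the members or lists but not reported here by name.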

Additional observations from a re-analysis of the deposited data

Results flagged for a closer look

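In 45 groups of 4 pools, 2 had a pool whose gap to the others exceeded Dixon's critical value, and chance alone flags about 1 in 20 groups. Among the 2 was the family's share in endothelial cells, which was 4.70% of UMIs in mock pool 4 and 6.65 to 6.77% in the other mock pools. Mock pool 4 also had the lowest family share of the mock pools over all cells.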

How the results depend on the processing

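Counts of members called for morphine, in pools, classes and sorted cells, and for age were 0 under every alternative run, except that leaving out 1 sorted library gave 0 to 3 members lower. Counts against the family total moved in the mock pools alone, to 126 higher and 117 lower, where fewer pools were fitted. Leaving out 1 pool gave 191 to 209 higher and 174 to 196 lower, and for plain class levels 345 to 380 higher and 375 to 401 lower. Of 72 named departures from the family, 68 kept direction and call in all 11 alternatives, and 4 (Rps19 and Rpl10 in astrocytes, Rpl29 in ependymal cells, Rpl24 in mural cells) lost the call in at least 1 with the direction kept. None changed sign. Same-numbered mock and morphine pools came from mice of the same ages, but the labels name no shared litter or day. Their deviations correlated at 0.47 and 0.72 for numbers 1 and 4 (each best with its own number) and at -0.05 and -0.04 for numbers 2 and 3, so pairing was not established, and a replicate block left 0 members called in pools and in classes. For sorted libraries no block was run, since their columns name a group and no sample. Few UMIs stand behind some values: Rpl24 in endothelial cells rests on 3 to 28 per pool and Rps27l in ependymal cells on 12 to 46.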

Other observations

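Genes that act with the ribosome were described from lists chosen with earlier results of these data known. Translation factors whose messages also carry the terminal pyrimidine motif were called in the direction of the ribosomal proteins in some classes and not in others. Of 17 tested, 15 were higher and 0 lower in dividing progenitors, 14 and 0 in neuroblasts and 14 and 1 in endothelial cells, while 1 was higher and 10 were lower in D1 neurons and 0 and 11 in oligodendrocyte precursors (edgeR's quasi-likelihood test, where 26.0% of all class and gene pairs were called higher and 22.6% lower). In ependymal cells 1 factor was higher and 7 were lower (20.3 and 24.8% of all genes), where 21 and 8 members were. In microglia 5 of the 17 were higher and 3 lower, near the shares over all genes (23.3 and 14.9%), where 60 and 1 members were. Mitochondrial ribosomal proteins serve the separate ribosomes of mitochondria. Of 73 tested, 40 were higher and 6 lower in D1 neurons (39.0 and 28.6% of all genes), 42 and 5 in D2 neurons (37.4 and 28.3%) and 40 and 0 in astrocytes (30.2 and 20.6%), the classes in which 74, 74 and 68 cytosolic members were lower. In endothelial cells 4 were higher and 27 lower (29.4 and 27.2%), and in microglia 0 and 28 (23.3 and 14.9%), classes with most cytosolic members higher. In dividing progenitors both kinds had more genes called higher than lower, with 22 mitochondrial ones higher and 5 lower (21.6 and 26.2%). Of 25 ribosome biogenesis genes, 16 were higher and 1 lower in dividing progenitors, but 4 were higher and 11 lower in endothelial cells.

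With morphine, 14.8% of all genes were called in sorted oligodendrocytes. Among 30 biogenesis genes 2 rose, Tma16 (4.01 ± 0.075, log2 ± SE) and Mybbp1a (0.66 ± 0.073), and 1 fell, Ubtf (-0.36 ± 0.072), which activates transcription of ribosomal RNA. Of 75 mitochondrial ribosomal proteins 3 rose, among them Mrpl41 (0.77 ± 0.13) and Mrpl39 (0.58 ± 0.078), and 1, Mrps6, fell (-0.65 ± 0.15). On the list of the mTOR branch 5 of 19 rose and 2 fell, led by Ddit4, an inhibitor of mTOR complex 1 (2.03 ± 0.087), and Deptor, a binding partner of mTOR (-1.01 ± 0.078). Eif3f rose (0.24 ± 0.078, adjusted p = 0.045) as the 1 call among 17 translation factors. The 7 ribosomal proteins outside the symbol rule had 0 calls, Gnb2l1 being the most precise at -0.0016 ± 0.074 (adjusted p = 0.994). In the accumbens pools 0 genes of these lists were called for morphine or for age, where 0.00% of all genes were.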
